A study of Mus musculus with 6 samples.

Results

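The BTB zinc finger factors that carry the symbol Zbtb were followed in bone marrow progenitors of mice with mutant ASXL1. All 40 rows of the count table whose symbol is Zbtb, a number and at most 1 further letter were taken, of 24421 gene rows in all, and 37 of them had enough counts to be tested among 13548 tested genes. The rule uses the symbol alone and no measured value. The members and the gene lists below were chosen with earlier results of these data known, so their shares beside all genes are descriptive. The cells were LK cells of C57BL/6 mice, which lack markers of mature blood lineages and carry c-Kit, the receptor for stem cell factor, and so include stem cells and early myeloid and erythroid progenitors. RNA was sequenced in 3 libraries of ASXL1-MT-KI mice, which have mutant ASXL1 knocked in, and in 3 libraries of wild type littermates, all 8 to 12 weeks of age. ASXL1 is a chromatin protein whose gene is often mutated in myeloid neoplasms. The sources used here name neither the mutation, the promoter behind the knock-in allele nor any Cre driver, and give no number of animals per library.

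BTB zinc finger proteins have a BTB domain at the amino terminus, through which they form dimers, and zinc fingers at the carboxy terminus, which bind DNA. Most are repressors: the BTB domain of several of them recruits corepressors such as BCOR, with histone deacetylases, while others can also activate genes. In blood the family is known for fixing lineage choices, above all in lymphocytes, dendritic cells and erythroid cells.

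Libraries held 40462168 to 47579480 gene counts, of which the Zbtb rows took 50165 to 55970. Asxl1 was at 320.1 ± 8.71 CPM in ASXL1-MT-KI and 170.4 ± 5.43 CPM in wild type cells (CPM, the gene's counts scaled to a fixed library total with TMM factors; SD, n = 3 each), with every ASXL1-MT-KI library above every wild type library. Kit was at 382.9 ± 11.7 CPM in ASXL1-MT-KI and 406.4 ± 41.0 CPM in wild type. Other progenitor genes did differ. Of 12 tested stem cell genes 10 passed the genotype test given below (2 rose and 8 fell). The stem cell genes summed to 824.2 to 850.7 CPM in ASXL1-MT-KI and 938.6 to 1080 CPM in wild type, without overlap. Of 11 tested megakaryocyte genes 5 passed (1 rose and 4 fell). Kit alone therefore does not show a like mix of cells, and the part of that mix in the Zbtb levels was not tested. The replicate 3 libraries of both groups stood apart from the others: 17 erythroid genes summed to 3077, 3265 and 2404 CPM in ASXL1-MT-KI replicates 1 to 3, against 2528, 2737 and 1698 CPM in wild type replicates 1 to 3. The replicates are described as independent experiments, but not as separate animals, so p-values measure the spread between these libraries. In sorted populations of this kind fewer cells of a type and less RNA per cell cannot be told apart.

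Most of the family was transcribed in LK cells, and its summed level did not separate the genotypes. Over the 40 rows it came to 1166, 1197 and 1210 CPM in ASXL1-MT-KI libraries, against 1176, 1188 and 1236 CPM in wild type libraries, so the groups overlap. Of the tested members, 28 averaged at least 10 CPM in each group. Zbtb7c and Zbtb8b had 0 counts in all 6 libraries, and 3 counts, the limit that a count of 0 allows, correspond to 0.0625 to 0.0723 CPM in ASXL1-MT-KI and 0.0654 to 0.0739 CPM in wild type libraries (counting error only). Zbtb32, a repressor of lymphocyte responses, had 10, 19 and 7 counts in ASXL1-MT-KI and 9, 8 and 12 counts in wild type, too few to be tested.

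Per kilobase of merged exon, Zbtb12 had the highest level, at 21.5 ± 0.231 CPM per kilobase in ASXL1-MT-KI and 23.8 ± 1.39 in wild type (SD, n = 3 each). Zbtb7a followed at 18.4 ± 0.589 CPM per kilobase in ASXL1-MT-KI and 17.8 ± 0.402 in wild type. Zbtb22 had 15.7 ± 1.79 CPM per kilobase in ASXL1-MT-KI and 17.0 ± 0.485 in wild type, and Zbtb17 had 14.05 ± 1.004 in ASXL1-MT-KI and 16.5 ± 0.379 in wild type. In ASXL1-MT-KI the levels of Zbtb22 and Zbtb17 lie within 1 SD of Zbtb22, so their order is not settled. The median tested member was at 4.50 CPM per kilobase in ASXL1-MT-KI and 3.998 in wild type, and 5 members in ASXL1-MT-KI against 6 in wild type were above 10. The lowest tested members were Zbtb20, at 0.112 CPM per kilobase in ASXL1-MT-KI and 0.152 in wild type, and Zbtb37, at 0.210 in ASXL1-MT-KI and 0.216 in wild type. The exon length counts every annotated transcript, which lowers these values for genes with many alternative exons or ends.

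**Figure D1:**
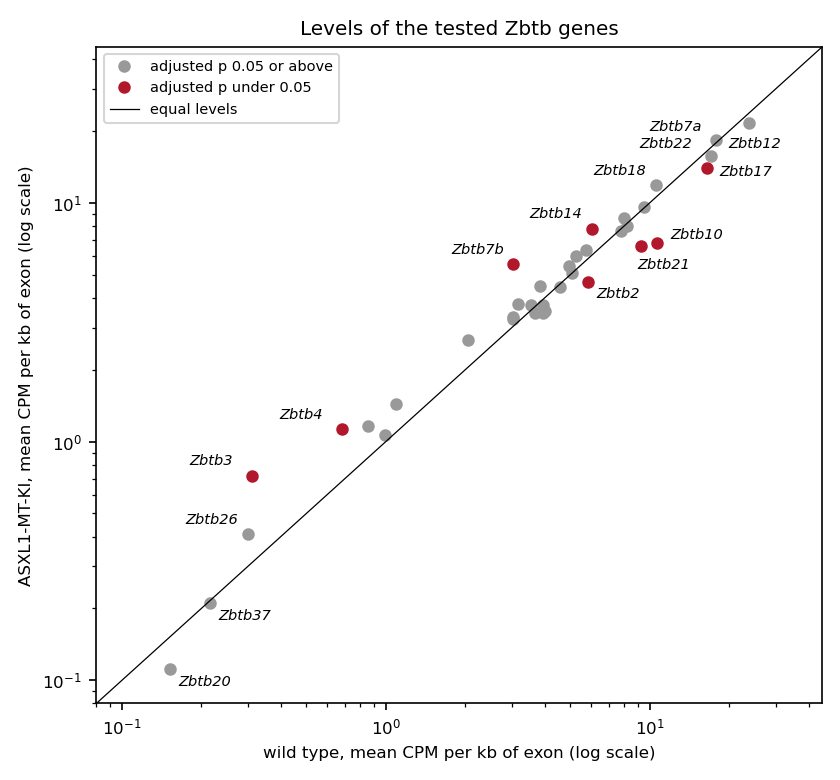
Mean level of each of the 37 tested Zbtb genes in ASXL1-MT-KI (vertical) and wild type cells (horizontal), in CPM per kilobase of exon on log axes, with a line at equal levels. Levels run from Zbtb20 (0.112 in ASXL1-MT-KI and 0.152 in wild type) to Zbtb12 (21.5 in ASXL1-MT-KI and 23.8 in wild type), and Zbtb3, Zbtb4 and Zbtb7b lie well above the line.

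Between genotypes 8 of the 37 tested Zbtb genes passed an adjusted p of 0.05 (edgeR quasi-likelihood test, Benjamini-Hochberg over all tested genes), which is 21.6% of them, against 16.0% of all genes. Zbtb3, Zbtb7b, Zbtb4 and Zbtb14 rose and Zbtb10, Zbtb21, Zbtb2 and Zbtb17 fell. Rises made up 8.29% and falls 7.69% of all tested genes. The members had a median log2 fold change of 0.07, against 0.00 for all genes, and the median size of a change, in either direction, was 0.17 for the members and 0.13 for all genes. In 18 members (48.6%) the CPM of the groups did not overlap, 11 higher and 7 lower in ASXL1-MT-KI, against 35.2% of all genes. In 27 members (73%) the 3 same-numbered differences had 1 sign, against 58.4% of all genes. No member changed by more than the 2.29-fold of Zbtb3. Of the 8 called, 4 changed by at least 1.5-fold, against 887 of the 2165 called among all genes.

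The replicate numbers were taken to pair the libraries, from their correlations. These do not single out every same-numbered pair: ASXL1-MT-KI 1 and wild type 2 correlated at 0.163 across genes, and the number 2 pair at 0.162. With the number as a block 19 members passed (51.4%; 12 rose and 7 fell), against 30.5% of all genes. The 8 members above were among them.

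**Figure D2:**
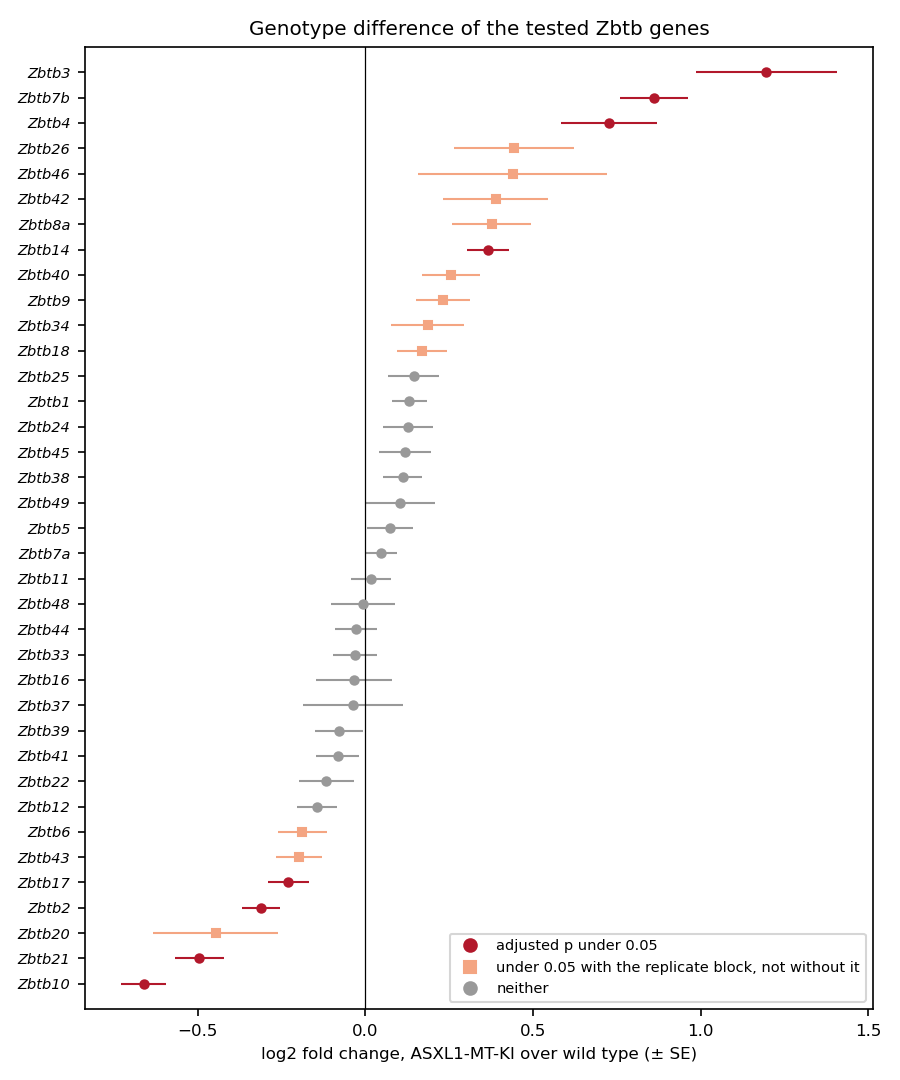
Log2 fold change of each tested Zbtb gene, ASXL1-MT-KI over wild type, with its SE (horizontal bars; n = 3 libraries each). Red points mark the 8 genes past an adjusted p of 0.05, orange squares the 11 that pass with the replicate block and not without it, and grey points the other 18.

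The promoters of 4 called genes are shown as examples, with fewer CpG sites in 2 genes that rose than in 2 genes that fell. Each is the 250 bases before the annotated start (RefSeq, GRCm38.p6), read 5′ to 3′ along the gene, with the GC box GGGCGG on either strand in capitals. The windows are chr3:89393379-89393628 on the minus strand for Zbtb7b, chr11:69765662-69765911 on the plus strand for Zbtb4, chr16:97962623-97962872 on the minus strand for Zbtb21 and chr10:4388109-4388358 on the minus strand for Zbtb2.
Zbtb7b: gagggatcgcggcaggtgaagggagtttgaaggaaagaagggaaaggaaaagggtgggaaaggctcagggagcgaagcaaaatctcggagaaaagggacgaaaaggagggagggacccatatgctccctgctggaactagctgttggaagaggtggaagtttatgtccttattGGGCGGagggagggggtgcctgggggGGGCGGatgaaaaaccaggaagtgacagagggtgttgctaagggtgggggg
Zbtb4: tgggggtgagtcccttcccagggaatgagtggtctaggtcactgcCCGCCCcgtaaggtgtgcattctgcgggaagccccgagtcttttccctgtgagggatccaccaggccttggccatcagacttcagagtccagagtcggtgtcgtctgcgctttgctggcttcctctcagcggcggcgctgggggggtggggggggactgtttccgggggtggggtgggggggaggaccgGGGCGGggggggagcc
Zbtb21: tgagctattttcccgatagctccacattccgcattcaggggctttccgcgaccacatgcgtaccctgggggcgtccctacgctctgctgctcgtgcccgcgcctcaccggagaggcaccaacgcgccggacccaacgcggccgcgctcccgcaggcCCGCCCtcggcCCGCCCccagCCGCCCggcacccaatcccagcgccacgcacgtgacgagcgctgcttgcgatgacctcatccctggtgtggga
Zbtb2: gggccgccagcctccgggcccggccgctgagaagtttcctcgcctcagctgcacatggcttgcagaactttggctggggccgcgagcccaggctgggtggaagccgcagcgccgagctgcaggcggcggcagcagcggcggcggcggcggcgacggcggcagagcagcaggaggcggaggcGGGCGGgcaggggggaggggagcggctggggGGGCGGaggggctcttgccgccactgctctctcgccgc
The printed window of Zbtb7b holds 7 CpG, its second window, not printed, 5, and that of Zbtb4 13, against 30 for Zbtb21 and 28 for Zbtb2. All 4 printed windows are above the median of 6 CpG over all RefSeq windows. The 4 were picked after their values were seen, and Zbtb14 does not keep that order. Its 3 windows, of a gene that rose, hold 17, 22 and 43 CpG, while those of Zbtb3, which rose, hold 8 and 9 and those of Zbtb17, which fell, 19 and 20.

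RefSeq windows were found for 35 of the 40 members, 48 windows in all, and Zbtb10, Zbtb16, Zbtb40, Zbtb48 and Zbtb7c had no entry. Their median GC content was 64.6%, against 52.4% over all 32851 windows of the same length, and their median number of CpG was 20, against 6. GGGCGG stood in 29 of the 48 member windows (60.4%), in 25 members, against 32.7% of all windows. TCTCGCGA, the core of the element that ZBTB33 binds, was found on either strand in the window of Zbtb42 alone (2.08%, against 0.858% of all), and TGACGTCA, the cAMP response element, in that of Zbtb11 alone (2.08%, against 1.55%). TATAAA stood in 5 windows of Zbtb18 and Zbtb43 (10.4%, against 12.4%). These are letter matches in a fixed window.

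Among the members known for blood and immune lineages, 9 of 10 were tested, and 1 rose and 1 fell (22.2% of those tested, against 16.0% of all genes). Zbtb7b rose. It encodes ThPOK, the factor that commits thymocytes to the CD4 helper fate (chr3:89377644-89394776, minus strand, GRCm38). Its level was 31.1, 30.5 and 31.2 CPM in ASXL1-MT-KI libraries, against 14.3, 19.4 and 17.4 CPM in wild type libraries. All 3 ASXL1-MT-KI libraries were higher than any wild type library and close to each other, and the fold was 1.82 (log2 fold change 0.86 ± 0.10 SE, adjusted p = 0.000688). Of the T and NK cell genes with a row, 8 had under 10 counts in every library, while 6 reached 1 CPM in at least 3 libraries. Among the 8, Cd3g had 0 counts in all libraries, Cd3e had 3 counts in wild type replicate 1 and 0 elsewhere, and Cd8a had 1 to 3 counts. The 17 T and NK cell genes with a row summed to 157.1 to 209.5 CPM in ASXL1-MT-KI and 181.6 to 205.9 CPM in wild type, and of the 7 tested none passed in edgeR, 3 had an unadjusted p under 0.05, 1 passed in DESeq2 and 4 with the block. Without wild type replicate 3, 2 of 8 passed, and without wild type replicate 2, 1 of 8. Cd4, which ThPOK sustains in T cells, was at 1.73 ± 0.249 CPM in ASXL1-MT-KI and 1.18 ± 0.266 CPM in wild type (adjusted p = 0.118, and 0.0495 with the block).

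Zbtb17 fell by the smallest amount of the called members. It encodes MIZ1, which activates cell cycle inhibitors such as Cdkn1a and is turned into a repressor by MYC, and which early B and T cells need (chr4:141444654-141467930, plus strand). Its level was 58.5, 54.3 and 50.7 CPM in ASXL1-MT-KI libraries, against 64.1, 62.3 and 65.2 CPM in wild type libraries. The groups do not overlap, but ASXL1-MT-KI replicate 1 lies nearer to wild type than replicate 3 does. The log2 fold change was -0.23 ± 0.06 SE (0.853-fold, adjusted p = 0.0337, and 0.0038 with the block). The call was lost with total counts as scaling (adjusted p = 0.0712), with replicate 3 of both groups left out (0.0886), and without any single library other than ASXL1-MT-KI replicate 1 (adjusted p 0.0253 to 0.107 over the 6 libraries left out).

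**Figure D3:**
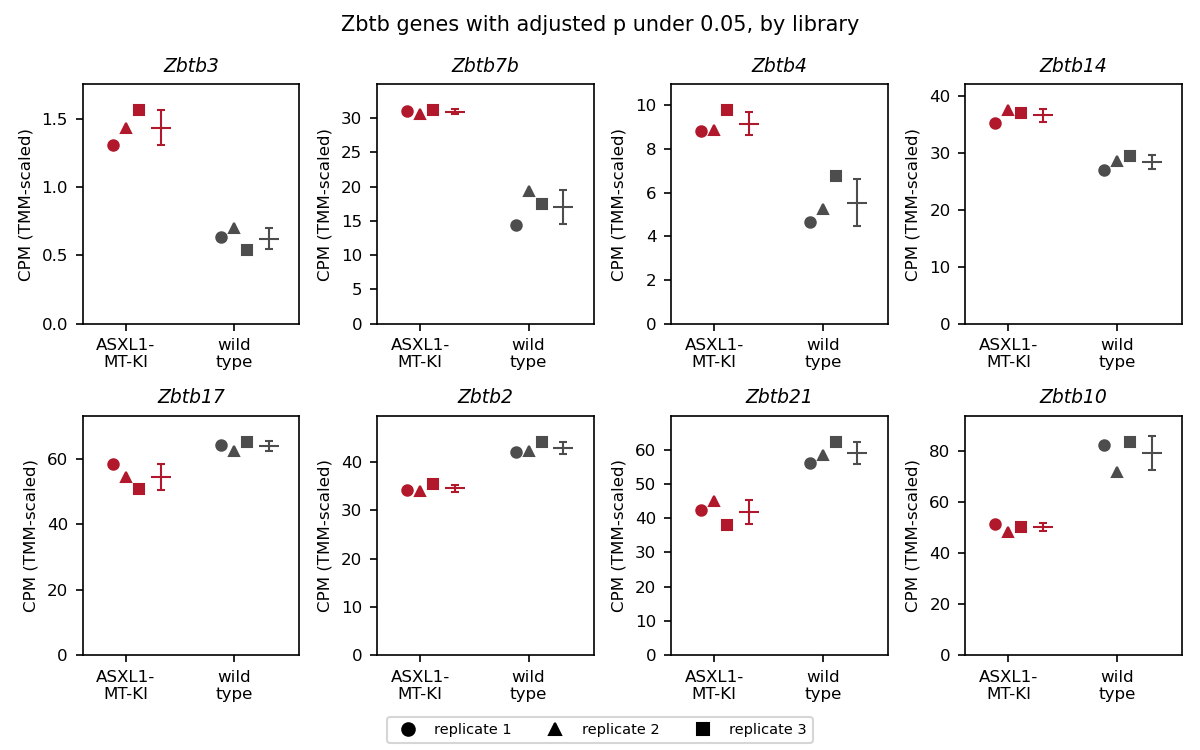
CPM of the 8 called Zbtb genes in each library, ASXL1-MT-KI left and wild type right, with the mean and SD beside the points; marker shapes give the replicate number and each vertical axis starts at 0. In none of the 8 panels do the groups overlap, from Zbtb3 (1.44 ± 0.127 CPM in ASXL1-MT-KI and 0.624 ± 0.0782 CPM in wild type) to Zbtb10 (50.1 ± 1.65 CPM in ASXL1-MT-KI and 79.3 ± 6.62 CPM in wild type).

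The other lineage factors did not pass the test. Zbtb7a, which encodes LRF and is needed for erythroid maturation in mice, was the most abundant member by CPM, at 121.2, 125.6 and 129.3 CPM in ASXL1-MT-KI, against 118.2, 122.0 and 123.6 CPM in wild type. These ranges overlap, and the 95% interval of the log2 fold change ran from -0.06 to 0.15 (adjusted p = 0.55). Zbtb16, which encodes PLZF, the factor of innate-like T cells that is fused to RARA in some human acute promyelocytic leukaemias, had 21.3, 23.4 and 26.0 CPM in ASXL1-MT-KI, against 22.8, 21.4 and 28.2 CPM in wild type. The replicate 3 library was the highest of each group, and the interval for genotype ran from -0.29 to 0.22 (adjusted p = 0.878). Its sign changed with total counts and without replicate 3 of both groups. Zbtb1, required for lymphoid development in mice, had 64.1, 68.1 and 66.2 CPM in ASXL1-MT-KI, against 61.7, 58.1 and 61.3 CPM in wild type. Its groups do not overlap, but at a log2 fold change of 0.13 it did not pass (adjusted p = 0.12, 0.0553 with the block, and 0.0423 with total counts).

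Zbtb46 and Zbtb20 differed by replicate number. For genotype their groups overlap, and they passed with the block or, for Zbtb46, with replicate 3 of both groups left out. Zbtb46, which marks conventional dendritic cells and is also active in erythroid progenitors and endothelium, had 529, 498 and 315 counts in ASXL1-MT-KI and 405, 395 and 177 counts in wild type, or 11.0, 11.0 and 7.59 CPM in ASXL1-MT-KI, against 8.82, 8.61 and 4.36 CPM in wild type. The replicate 3 library was the lowest of each group, by 0.76 on the log2 scale below the other 2 replicates, while every ASXL1-MT-KI library lay above the wild type library of its number. Its log2 fold change was 0.44 ± 0.28 SE without the block (adjusted p = 0.347), 0.47 with it (0.00356), and 0.34 with replicate 3 of both groups left out (0.0442). Erythroid genes moved with it: all 17 were higher in ASXL1-MT-KI (4 passed, or 23.5% against 16.0% of all genes, and 16 with the block, against 30.5%), and their sum given above was also lowest in replicate 3 of each group. With wild type replicate 1 left out, 1 erythroid gene passed; with ASXL1-MT-KI replicate 1 or 2 left out, 2 passed; and 11 passed without replicate 3 of both groups. Of 11 tested dendritic genes 3 passed (27.3%): H2-Ab1 rose (log2 fold change 0.55) and Flt3 (-0.65) and Irf4 (-1.49) fell. The 14 dendritic genes summed to 505.0 to 528.9 CPM in ASXL1-MT-KI and 497.6 to 538.8 CPM in wild type. Of them 9 reached 1 CPM in at least 3 libraries, while Batf3 and Cd209a were low, at 5 to 15 and 1 to 9 counts per library. The part of these cells in the level of Zbtb46 was not tested. Zbtb20, known from plasma cells, liver and brain, had 3.08, 3.30 and 3.91 CPM in ASXL1-MT-KI, against 3.83, 4.23 and 5.96 CPM in wild type. Its replicate 3 libraries were the highest of each group, by 0.42 on the log2 scale, and the genotype difference of -0.45 ± 0.19 SE passed with the block and not without it (adjusted p = 0.14 without it and 0.0203 with it). Without replicate 3 of both groups it was -0.34 (adjusted p = 0.178), and without wild type replicate 3 alone -0.24 (0.343). Without the block 7 of 12 tested B and plasma cell genes fell, against 7.69% of all genes, and none rose. With it 9 fell and 1 rose, against 13.8% and 16.7% of all genes. In fits with no block 3 of 12 fell without wild type replicate 1 and 4 of 13 without ASXL1-MT-KI replicate 2. The median log2 fold change of the tested genes was -1.16, with 11 lower and 1 higher. Only 6 genes of the list reached 1 CPM in at least 3 libraries. The list had sums of 194.1 to 199.6 CPM in ASXL1-MT-KI and 208.1 to 219.8 CPM in wild type. Whether these genes bear on Zbtb20 was not tested.

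**Figure D4:**
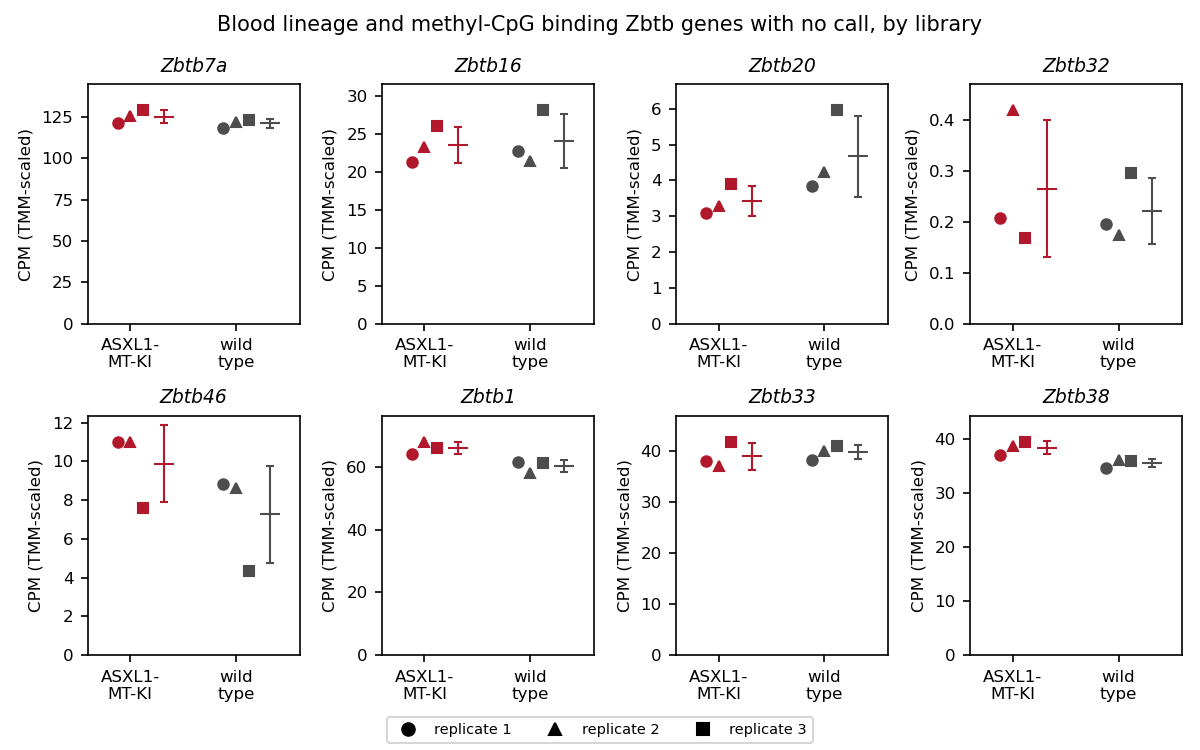
CPM of 8 blood lineage and methyl-CpG binding Zbtb genes that did not pass without the block, by library, ASXL1-MT-KI left and wild type right, with the mean and SD; marker shapes give the replicate number and each vertical axis starts at 0. Replicate 3, the square, is the lowest of both groups for Zbtb46 (7.59 CPM in ASXL1-MT-KI and 4.36 CPM in wild type) and the highest of both for Zbtb20 (3.91 CPM in ASXL1-MT-KI and 5.96 CPM in wild type).

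**Figure D5:**
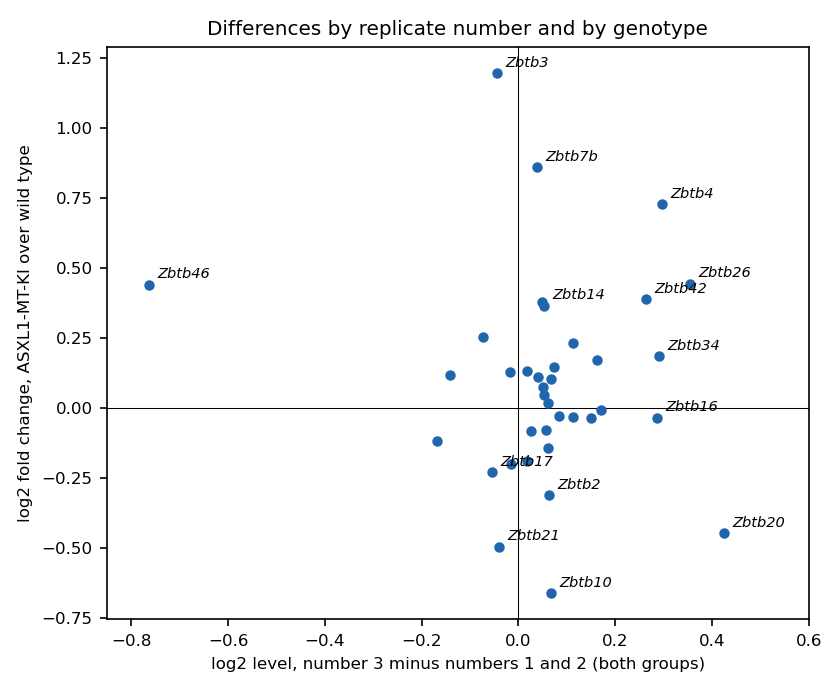
Log2 fold change by genotype (vertical, ASXL1-MT-KI over wild type) against the log2 level of replicate 3 relative to replicates 1 and 2, taken over both groups (horizontal), for each tested Zbtb gene. Zbtb46 lies far left at -0.76 and Zbtb20 far right at 0.42, while Zbtb3, Zbtb7b, Zbtb10 and Zbtb21 differ by genotype and little by number on this average. For Zbtb3 and Zbtb21 the average joins opposite moves. Replicate 3 was the highest ASXL1-MT-KI and the lowest wild type library for Zbtb3, and the reverse for Zbtb21.

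Averaged over both groups, 28 members were higher and 9 lower in replicate 3 than in the other 2 replicates, with a median log2 difference of 0.06. Replicate 3 was the highest library of each group for 11 members and the lowest of each for 3. The same counts were not made over all tested genes, so no trait of the family is read from them.

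Of the 3 members that bind methylated CpG and repress from it, Zbtb4 rose (33.3%, against 16.0% of all genes) and the others did not pass. Zbtb4 (chr11:69765912-69784023, plus strand) had 424, 401 and 406 counts in ASXL1-MT-KI and 213, 240 and 274 counts in wild type, or 8.84, 8.87 and 9.79 CPM in ASXL1-MT-KI, against 4.64, 5.23 and 6.75 CPM in wild type. The groups do not overlap, and the replicate 3 library was the highest of each, by 0.30 on the log2 scale. The fold was 1.66 (log2 fold change 0.73 ± 0.14 SE, adjusted p = 0.00879, and 0.000912 to 0.0387 with any 1 library left out). Zbtb33, which encodes Kaiso, had 38.0, 37.0 and 41.8 CPM in ASXL1-MT-KI, against 38.2, 40.1 and 41.0 CPM in wild type. Its groups overlap, with an interval from -0.18 to 0.12 on the log2 scale (adjusted p = 0.805), and its sign changed with total counts. Zbtb38 had 37.0, 38.6 and 39.5 CPM in ASXL1-MT-KI, against 34.7, 36.0 and 35.8 CPM in wild type. Its groups do not overlap, but the interval ran from -0.02 to 0.24 (adjusted p = 0.227).

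The cell cycle and p53 members held 3 of the calls among 5 tested, against 16.0% of all genes: Zbtb4 rose, and Zbtb2 and Zbtb17 fell. The count was 2 wherever the call of Zbtb17 was lost, as given above. Zbtb2 (chr10:4367075-4388108, minus strand), whose human protein represses CDKN1A, had 34.1, 34.0 and 35.5 CPM in ASXL1-MT-KI, against 42.0, 42.4 and 44.2 CPM in wild type. Both groups were tight and apart, with a log2 fold change of -0.31 ± 0.06 SE (0.806-fold, adjusted p = 0.00599). Zbtb5 and Zbtb7a, the rest of that list, did not pass.

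The remaining called members have no such shared role. Zbtb10 (chr3:9250602-9285333, plus strand), whose human protein represses genes of the SP transcription factors, had the lowest adjusted p of the family. It had 2478, 2187 and 2092 counts in ASXL1-MT-KI and 3784, 3288 and 3401 counts in wild type, or 51.6, 48.4 and 50.4 CPM in ASXL1-MT-KI, against 82.4, 71.7 and 83.8 CPM in wild type. Each ASXL1-MT-KI library was more than 20 CPM below each wild type library, and the log2 fold change was -0.66 ± 0.07 SE (0.632-fold, adjusted p = 0.000366). Zbtb21 (chr16:97943357-97962622, minus strand), whose human protein binds ZBTB14, had 42.4, 45.01 and 37.9 CPM in ASXL1-MT-KI, against 56.0, 58.4 and 62.3 CPM in wild type. It was lower in every ASXL1-MT-KI library, most of all in replicate 3, with a log2 fold change of -0.50 ± 0.07 SE (0.710-fold, adjusted p = 0.00225). Zbtb14 itself (chr17:69383050-69391199, plus strand), first known as a repressor at the mouse Myc promoter, had 35.2, 37.4 and 36.9 CPM in ASXL1-MT-KI, against 27.0, 28.6 and 29.5 CPM in wild type. Each ASXL1-MT-KI library lay above all wild type libraries, with a log2 fold change of 0.37 ± 0.06 SE (1.29-fold, adjusted p = 0.0047).

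Zbtb3 (chr19:8802555-8804846, plus strand) had the largest fold of the family at one of its lowest levels. It had 63, 65 and 65 counts in ASXL1-MT-KI and 29, 32 and 22 counts in wild type, or 1.31, 1.44 and 1.57 CPM in ASXL1-MT-KI, against 0.632, 0.698 and 0.542 CPM in wild type. No ASXL1-MT-KI library was near a wild type library, and the log2 fold change was 1.20 ± 0.21 SE (2.29-fold, adjusted p = 0.00524).

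Besides Zbtb46 and Zbtb20, 9 members passed with the block and not without it. Of these Zbtb40 (adjusted p = 0.0427), Zbtb8a (0.0395) and Zbtb9 (0.0495) also passed with total counts, and Zbtb40 (0.0159) without wild type replicate 2 and Zbtb8a (0.0499) without wild type replicate 3. Zbtb40 was at a log2 fold change of 0.25 (adjusted p = 0.0779 without the block and 0.00676 with it), Zbtb18, a repressor of brain development, at 0.17 (0.158 without it and 0.0114 with it), and Zbtb42, known from muscle, at 0.39 (0.126 without it and 0.0318 with it). Zbtb8a was at 0.38 (0.0568 without it and 0.0223 with it), Zbtb34 at 0.19 (0.293 without it and 0.0236 with it), and Zbtb9 at 0.23 (0.084 without it and 0.032 with it). Zbtb9 shares 84.4% of its exon bases with Ggnbp1 on the same strand, so its counts may include reads of that gene. Zbtb26 was at 0.44 (0.128 without it and 0.0317 with it), while its neighbour Zbtb6 was at -0.19 (0.115 without it and 0.0493 with it). These last share 449 exon bases on 1 strand. Zbtb43 was at -0.20 (0.08 without it and 0.0452 with it).

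The 18 members that passed in neither fit had log2 fold changes of -0.14 to 0.15 and mean levels of 3.95 to 125.3 CPM in ASXL1-MT-KI. They include Zbtb24, mutated in a human immunodeficiency with unstable centromeres, and Zbtb48, a telomere-binding protein. Their adjusted p ran from 0.12 to 0.974, which does not show that they are alike in both genotypes.

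BTB zinc finger genes under other symbols and the partners of the BTB domain were set beside the Zbtb genes. Of 12 listed, 9 had rows, and the other 3 are older symbols of Zbtb14, Zbtb18 and Zbtb21. All 9 were tested: Hic2, Bcl6 and Hic1 fell and Gzf1 rose, which is 44.4% of this list against 16.0% of all genes, with a median log2 fold change of -0.12. Bcl6, the repressor of germinal centre B cells, was at 5.32 ± 0.804 CPM in ASXL1-MT-KI and 8.52 ± 0.948 CPM in wild type (log2 fold change -0.68, adjusted p = 0.0103). Hic2, which represses BCL11A in human erythroid cells, was at 12.5 ± 0.666 CPM in ASXL1-MT-KI and 17.8 ± 0.359 CPM in wild type (-0.51, adjusted p = 0.00227). The calls of Hic1, a tumour suppressor (0.367 ± 0.116 CPM in ASXL1-MT-KI and 0.787 ± 0.0799 CPM in wild type, adjusted p = 0.0326), and of Gzf1 (41.9 ± 0.455 CPM in ASXL1-MT-KI and 36.9 ± 0.737 CPM in wild type, adjusted p = 0.0493) were less stable. Gzf1 did not pass without any single library (adjusted p 0.0689 to 0.187), and Hic1 passed without ASXL1-MT-KI replicate 1 (0.0282) but not without any of the other 5 libraries (0.0525 to 0.13). Gzf1 also missed the threshold with DESeq2 size factors, DESeq2 and no filter, and Hic1 with DESeq2.

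Of 25 corepressor and cullin 3 genes, 6 passed (24%, against 16.0% of all genes): 2 rose and 4 fell, with a median log2 fold change of -0.05. Leaving out 1 library left 2 to 4 calls. Of the genes named next, Bcor and Nacc2 passed without each of the 6 libraries. Bcor, the corepressor that BCL6 recruits, was at 165.1 ± 5.57 CPM in ASXL1-MT-KI and 201.5 ± 3.42 CPM in wild type (-0.29, adjusted p = 0.00325). Its paralog Bcorl1 was at 35.8 ± 1.48 CPM in ASXL1-MT-KI and 28.4 ± 2.83 CPM in wild type (0.33, adjusted p = 0.0213). Nacc2, a BTB protein without zinc fingers, rose by 0.67 on the log2 scale (adjusted p = 0.00227). Among the other genes that fell were Cul3, the scaffold of a ubiquitin ligase (-0.20, adjusted p = 0.038), and Tbl1x (-0.18, adjusted p = 0.0434). With total counts as scaling 4 of the 25 passed, 3 up and 1 down.

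Known targets of MIZ1 and LRF were also counted. Of the tested MYC and MIZ1 genes 3 passed (42.9%, against 16.0% of all genes). Of 7 tested partners and targets of MIZ1, Cdkn1a fell to 87.7 ± 17.8 CPM in ASXL1-MT-KI, against 183.6 ± 13.6 CPM in wild type (-1.07, adjusted p = 0.00437), while Cdkn1c (1.27, adjusted p = 0.00256) and Gfi1 (0.55, adjusted p = 0.0268) rose. Cdkn1a did not pass without replicate 3 of both groups (adjusted p = 0.117), and Gfi1 not without ASXL1-MT-KI replicate 1 (0.0776), wild type replicate 1 (0.0914) or wild type replicate 2 (0.0849). Of 4 tested genes that LRF represses, 2 fell (50%, against 7.69% of all genes). These were Bcl2l11 (-0.68, adjusted p = 0.0117) and Slc2a3 (-0.33, adjusted p = 0.0141), the second not without wild type replicate 1 (0.0542). Whether any of these targets follows the level of Zbtb17 or Zbtb7a was not tested.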

How the data were processed

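Total RNA of LK cells was made into libraries with the NEBNext Ultra kit from 200 ng RNA and read as 124 bp paired ends on a HiSeq instrument, per the labels' protocols. HISAT2 2.0.4 and mm10 are named, per the submitters' processing notes; how reads were counted, with or without strand, and what was done with shared reads is not given there. The authors deposited raw counts per gene symbol, not normalized, for 24421 rows and 6 libraries; 6240 rows are 0 throughout. Overlapping and antisense genes are therefore uncertain.

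ASXL1-MT-KI was compared with wild type in edgeR 4.0.16 (R 4.3.3): filterByExpr with a minimum of 10 counts, TMM scaling, a robust quasi-likelihood F test and Benjamini-Hochberg adjustment over 13548 genes at 0.05. The SE is the estimate over the square root of F. Exon lengths and coordinates are from GENCODE M21 (GRCm38, the assembly mm10 names), promoters from RefSeq; protein sequences were not used here. No 2 libraries of a group agreed within sampling noise. Deviations from group means correlated between same-numbered libraries at 0.253, 0.162 and 0.391 across genes, all above 0.1. The numbers from the titles were therefore taken to pair the libraries, although ASXL1-MT-KI 1 and wild type 2 also passed that level, at 0.163. Over the tested members ASXL1-MT-KI 1 correlated with wild type 2 at 0.492 and with wild type 1 at 0.289. Blocked values stand where they change the call of a member. With the block 9 of 25 corepressor and cullin 3 genes passed (2 rose, 7 fell), against 30.5% of all genes. So did 4 of 11 dendritic genes (2 rose, 2 fell) and 3 of 4 genes that LRF represses (3 fell). The fit was tested on simulated data.

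The members and lists were chosen with earlier results of these data known. Named in full were members past the threshold, 7 lineage factors and 3 methyl-CpG binding factors; those past it with the block only are named with both adjusted p. Zbtb1, the overlapping neighbours, the GC box motif and the printed promoters were added after values were seen, and Zfp719 (adjusted p = 0.367), listed in error as a BTB gene, was removed then. The test was repeated with the replicate block; with total counts or DESeq2 size factors as scaling; in DESeq2 1.42.0 and limma-voom (limma 3.58.1); with no filter or with CPM 1 in 3 libraries; at a threshold of 0.10 or with a fold of 1.5; and without each library or replicate 3 of both groups. 1 gene of the corepressor list is counted there but not reported here. Figures were drawn with matplotlib 3.10.9.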

Additional observations from a re-analysis of the deposited data

How the results depend on the processing

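The 8 called Zbtb genes were the same with DESeq2 size factors, DESeq2, limma-voom, no filter, the CPM filter and without ASXL1-MT-KI replicate 1. With the replicate block, which takes the replicate numbers as pairs, 19 Zbtb genes passed (12 rose, 7 fell) and 4132 of all genes; no main call of a Zbtb gene was lost. A fold of at least 1.5 left 4 Zbtb genes (1 fell), 887 of all genes, 2 of the BTB genes under other symbols and 1 corepressor, by construction. Total counts shifted the median of all genes to 0.05 on the log2 scale: 8 Zbtb genes then rose and 3 fell, and 67.1% of all calls were rises, against 51.9% with TMM. At an adjusted p under 0.10, 12 of the 37 tested Zbtb genes passed (7 rose, 5 fell), against 3118 of the 13548 tested genes. Leaving out 1 library gave 7 to 8 Zbtb calls (4 to 5 rose, 3 to 4 fell), 1128 to 2257 calls among all genes, 2 to 3 among the other BTB genes and 2 to 4 among the corepressors. Among Zbtb genes Zbtb17 accounts for every loss; Zbtb40 was gained without wild type replicate 2 (adjusted p = 0.0159) and Zbtb8a without wild type replicate 3 (0.0499). The other BTB genes had 2 calls with DESeq2 and 2 with replicate 3 of both groups left out; the cause was not tested. No called Zbtb gene changed sign in any setting. The sign changed for 6 uncalled members with log2 fold changes of -0.04 to 0.02, whose adjusted p was at least 0.223 in every setting. With total counts these became 0.0133 for Zbtb37, 0.0441 for Zbtb48, 0.0247 for Zbtb44, 0.0166 for Zbtb16 and 0.0210 for Zbtb33. Without replicate 3 of both groups they became 0.112 for Zbtb37, 0.0784 for Zbtb48 and 0.0141 for Zbtb16, and with limma-voom 0.00211 for Zbtb48. Leaving out 1 library gave -0.146 to 0.0908 for Zbtb37, -0.0220 to 0.0657 for Zbtb11, -0.0658 to 0.0949 for Zbtb48, -0.0985 to 0.0101 for Zbtb44 and -0.115 to 0.0902 for Zbtb16. At the depth of these libraries Zbtb3 and Zbtb32 rest on the fewest counts.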

Other observations

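Some Zbtb genes lie side by side, and their count ratios are given as values, picked after they were seen and not tested. Zbtb26 over Zbtb6, which overlap, was 0.172, 0.223 and 0.261 in ASXL1-MT-KI and 0.136, 0.127 and 0.158 in wild type libraries, so the groups do not overlap. Zbtb43 over Zbtb34, 19 kb apart, was 0.473, 0.495 and 0.414 in ASXL1-MT-KI and 0.693, 0.621 and 0.501 in wild type. Zbtb1 over Zbtb25, whose starts lie 664 bases apart on opposite strands, was 3.42, 3.25 and 3.30 in ASXL1-MT-KI and 3.49, 3.37 and 3.20 in wild type, which overlap.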
